A study of Mus musculus with 18 samples.

Results

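The genes described here are 10 genes of phospholipase C and calcium signalling, of 21924 protein-coding genes of the mouse annotation. They are Plcg1, Plcg2 and Plcb2 (phospholipases C), Itpr1, Itpr2 and Itpr3 (IP3 receptors), Prkcb (protein kinase C beta), Ppp3ca and Camk4 (targets of calmodulin) and Nfatc2 (a transcription factor). DNA methylation was measured by whole-genome bisulfite sequencing, which reads the methylated share of each cytosine, in CD11b+ and CD4+ cells of the spleen. CD11b marks myeloid cells and CD4 marks helper T cells. Each cell type was taken from 4 wild-type mice (WT, Dnmt3a+/+) and 4 Dnmt3aR878H/+ mice (spelled Dnmt3aR878/+ in the labels), which carry in 1 allele the mouse counterpart of a mutation of clonal hematopoiesis in the DNA methyltransferase DNMT3A. In the study's methods, the mutant allele is conditional and is switched on by Vav1-iCre, which is active in the whole blood lineage, and mice with Cre but no floxed allele and mice with the floxed allele but no Cre are both counted as Dnmt3a+/+ (stated there for the transplantation controls). The mice were 8 to 10 weeks old and on a C57BL/6 background, and the study pooled males and females. CD11b+ cells of Dnmt3aR878H/+ mice have 6 entries for 4 mice, because replicates 3 and 4 have 2 entries each.

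The values are the authors' means over the mice of a genotype, in percent, for regions that the program metilene delimited in each cell type separately. Of the 411770 regions listed for CD11b+ cells, 726 overlapped 1 of the 10 genes or the 5 kb on either side of it, and of the 553467 regions listed for CD4+ cells, 890 did. Neither single mice nor read depths are given in the tables, so no mean has an error here and no difference could be tested across mice. The depth behind a single region is unknown, and the study's methods state 40X coverage. Since the tables name no genotype, the mean given first was taken as WT, the genotype with more methylation in the study's plots, and all directions given here depend on this. The 10 genes were chosen by the methylation differences of these same tables, so the differences between genotypes are a description and carry no test. By the study's criteria, a differentially methylated region (DMR) had more than 10 CpGs, means more than 20 percentage points apart and, in the authors' deposited table, a q-value under 0.05, and is called hypomethylated where the Dnmt3aR878H/+ mean was the lower one. The authors' number of CpGs was above the number of CG dinucleotides in many regions and below it in others. It was therefore read here as a count of CpG cytosines on both DNA strands, which the sources used here do not state.

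These genes form a relay from receptors at the cell surface to transcription in the nucleus. A phospholipase C cleaves a membrane lipid into diacylglycerol, which activates protein kinases C, and IP3, which opens the IP3 receptors of the endoplasmic reticulum and lets calcium into the cytosol. Calcium bound to calmodulin then activates calcineurin, the phosphatase that sends NFAT proteins to the nucleus, and the CaM kinases. The relay is best known from the activation of T cells through their antigen receptor, and myeloid cells use it downstream of chemoattractant and Fc receptors. Methylation of CpGs is kept up by DNMT1 and set anew by DNMT3A and DNMT3B.

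Sequence from DMRs of the genes that had one is given here, so that the spacing of the CpGs behind the values can be seen. For each gene it is the middle 300 bases of the DMR with the largest loss inside the gene or at its promoter, or the whole DMR where that is shorter, with each CG in capitals. These stretches hold between 5 CGs (Ppp3ca) and 24 CGs (Plcb2).
Plcg2, chr8:117538660-117538959 (mm10, plus strand): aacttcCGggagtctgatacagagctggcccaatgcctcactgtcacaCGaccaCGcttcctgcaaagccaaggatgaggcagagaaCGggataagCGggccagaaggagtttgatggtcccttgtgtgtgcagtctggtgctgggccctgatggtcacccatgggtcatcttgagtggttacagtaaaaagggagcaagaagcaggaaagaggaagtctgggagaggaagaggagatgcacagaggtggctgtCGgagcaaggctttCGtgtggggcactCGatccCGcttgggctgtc
Plcb2, chr2:118711090-118711389 (mm10, plus strand): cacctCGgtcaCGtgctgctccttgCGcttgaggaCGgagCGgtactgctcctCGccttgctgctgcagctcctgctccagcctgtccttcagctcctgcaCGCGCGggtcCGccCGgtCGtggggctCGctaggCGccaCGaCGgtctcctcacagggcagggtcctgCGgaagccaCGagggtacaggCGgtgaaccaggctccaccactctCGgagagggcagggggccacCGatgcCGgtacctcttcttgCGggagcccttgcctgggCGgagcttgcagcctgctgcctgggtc
Itpr1, chr6:108306407-108306706 (mm10, plus strand): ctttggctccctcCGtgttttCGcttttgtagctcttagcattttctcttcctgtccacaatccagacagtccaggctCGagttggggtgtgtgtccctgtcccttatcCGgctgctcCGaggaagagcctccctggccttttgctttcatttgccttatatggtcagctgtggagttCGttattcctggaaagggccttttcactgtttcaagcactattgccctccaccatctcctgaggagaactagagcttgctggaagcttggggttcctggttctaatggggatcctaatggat
Itpr2, chr6:146170552-146170763 (mm10, plus strand): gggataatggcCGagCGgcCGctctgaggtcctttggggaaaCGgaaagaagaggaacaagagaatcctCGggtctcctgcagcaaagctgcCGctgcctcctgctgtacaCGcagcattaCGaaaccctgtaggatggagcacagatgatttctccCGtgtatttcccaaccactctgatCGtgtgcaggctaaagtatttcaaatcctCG
Itpr3, chr17:27120474-27120773 (mm10, plus strand): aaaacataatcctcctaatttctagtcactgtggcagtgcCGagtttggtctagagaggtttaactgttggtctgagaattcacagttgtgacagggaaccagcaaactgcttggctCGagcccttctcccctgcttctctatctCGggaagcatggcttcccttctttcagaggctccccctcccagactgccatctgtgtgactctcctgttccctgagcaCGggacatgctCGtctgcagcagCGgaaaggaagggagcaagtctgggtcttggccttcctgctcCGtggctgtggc
Ppp3ca, chr3:136684413-136684712 (mm10, plus strand): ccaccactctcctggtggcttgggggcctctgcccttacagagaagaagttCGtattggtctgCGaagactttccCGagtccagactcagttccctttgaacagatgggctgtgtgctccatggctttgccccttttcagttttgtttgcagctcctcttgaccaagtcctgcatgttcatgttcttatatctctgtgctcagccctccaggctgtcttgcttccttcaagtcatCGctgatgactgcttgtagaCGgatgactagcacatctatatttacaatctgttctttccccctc
Nfatc2, chr2:168601964-168602099 (mm10, plus strand): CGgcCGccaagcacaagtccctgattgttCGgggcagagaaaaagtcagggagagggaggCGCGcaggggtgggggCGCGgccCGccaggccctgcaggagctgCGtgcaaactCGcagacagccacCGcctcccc

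The Itpr2 and Nfatc2 stretches are the whole DMRs, at 212 and 136 bases, and each holds 11 CGs. The Ppp3ca stretch holds 5 CGs in 300 bases. The Plcb2 stretch spans parts of coding exons 26 and 27 and the intron between them. In the 29 DMRs of the 10 genes, CpG density ran from 1.17 to 8.82 CG dinucleotides per 100 bases, and repeats masked in mm10 made up at most 15.9% of the bases of a DMR of CD11b+ cells and 25.6% of one of CD4+ cells. The median density was 2.33 CGs per 100 bases for CD11b+ cells and 2.34 for CD4+ cells. All hypomethylated DMRs had 2.72 and 2.53, and all listed regions of over 10 CpGs had 1.63 and 1.55. The middle 300 bases of the DMRs were searched on both strands for 4 short binding motifs, none of which contains another. The letters of the AP-1 motif are TGANTCA. Those of the RUNX motif are TGTGGTT. The GATA motif was read as AGATAAG. The PU.1 motif was read as GAGGAAGT. Of the 10 DMRs of CD11b+ cells, 0 held any of them, and over all listed regions of that cell type with more than 10 CpGs the shares were, in this order, 9.33%, 7.19%, 4.18% and 2.24%. In CD4+ cells, 2, 1, 2 and 1 of 19 DMRs held them, and the shares over all such regions were 9.78%, 7.23%, 4.14% and 2.18%. The PU.1 letters occur in the Plcg2 stretch printed above.

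Methylation at the 10 genes was high in WT cells and lower in Dnmt3aR878H/+ cells. In CD11b+ cells, the median over the 726 regions was 90.4% in WT (interquartile range over regions 76.8% to 94.4%) and 82.7% in Dnmt3aR878H/+ mice (61.7% to 89.8%). In CD4+ cells, the median over the 890 regions was 92.1% (82.4% to 95.5%) and 84.7% (66.7% to 91.2%). The Dnmt3aR878H/+ mean was the lower one in 677 regions of CD11b+ cells (93.3%) and in 841 regions of CD4+ cells (94.5%), where all listed regions gave 93.4% and 95.5%. The median loss at the genes was 7.37 percentage points for CD11b+ cells and 6.88 for CD4+ cells, beside 6.55 and 6.85 over all listed regions. The genes therefore lay close to the rest of the listed genome in their median, and regions of intermediate methylation lost the most. Regions with a WT mean between 50% and 80% lost 17.0 percentage points at the median in CD11b+ cells (163 regions) and 17.2 in CD4+ cells (150 regions), beside 13.4 and 13.1 over all listed regions of that level. Regions with a WT mean above 80% lost 5.80 and 5.73 percentage points at the median.

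**Figure D1:**
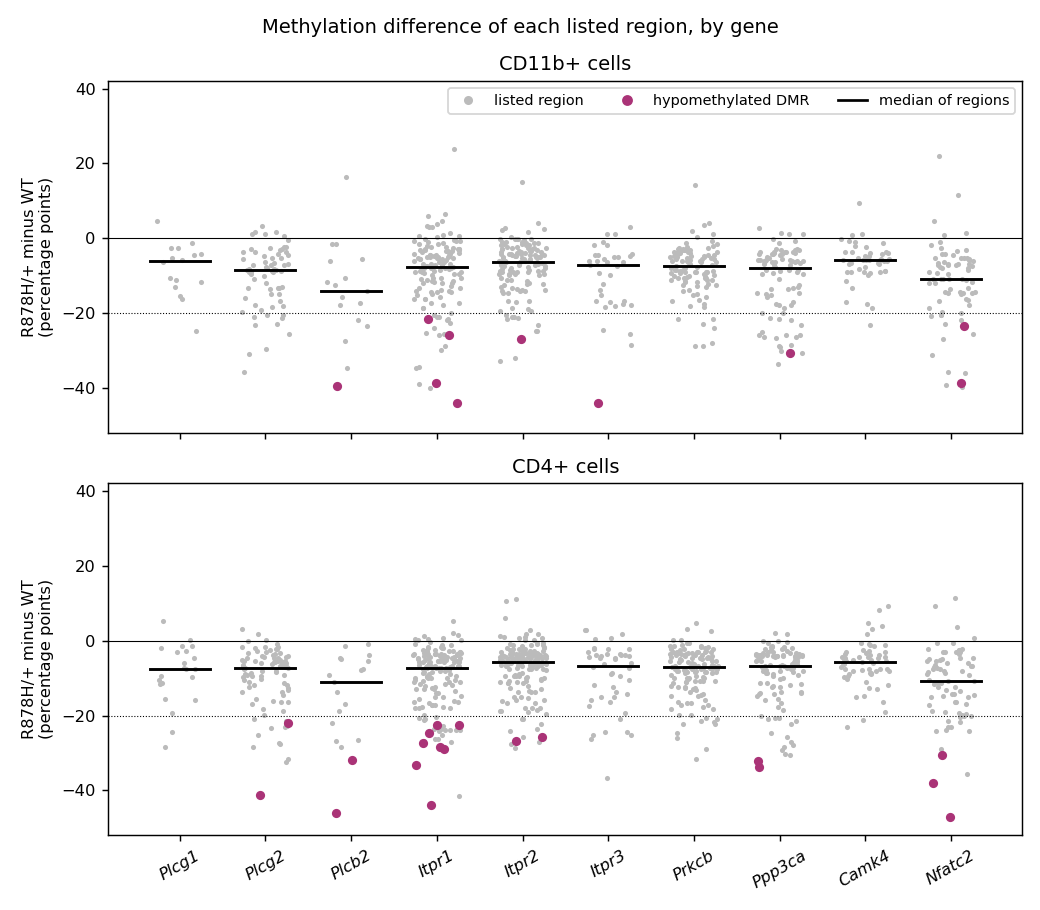
Difference between the Dnmt3aR878H/+ and the WT mean of each listed region (percentage points, vertical axis) at each of the 10 genes in CD11b+ cells (top) and CD4+ cells (bottom); black bars are medians over regions and the dotted line marks 20 percentage points. Most regions lie below 0, and the hypomethylated DMRs (large points) occur in 6 genes of each cell type.

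Hypomethylated DMRs were found at 6 of the 10 genes in each cell type. CD11b+ cells had 10 hypomethylated DMRs among 316 regions with more than 10 CpGs at the genes (3.16%), where 1.38% of all such regions passed. CD4+ cells had 19 among 429 (4.43%), where 1.49% passed. Hypermethylated DMRs numbered 0 in both cell types, where 0.0302% and 0.00121% of all such regions passed. Since the differences chose the genes, nothing is read from these shares. Plcb2, Itpr1, Itpr2, Ppp3ca and Nfatc2 had at least 1 hypomethylated DMR in each cell type, Itpr3 had 1 in CD11b+ cells alone, Plcg2 had 2 in CD4+ cells alone, and Plcg1, Prkcb and Camk4 had none in either. Of all protein-coding genes with a listed region of more than 10 CpGs in the same window, 8.90% held a hypomethylated DMR in CD11b+ cells and 11.8% held one in CD4+ cells. The 10 genes held many regions, with 16 to 138 each in CD11b+ cells and 19 to 166 in CD4+ cells where the median gene had 9 and 11. Among genes with at least 50 listed regions, 40.1% held a hypomethylated DMR in CD11b+ cells and 40.7% held one in CD4+ cells.

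Itpr1, the IP3 receptor of 338 kb on chromosome 6 (108213096 to 108551109, plus strand), had the most DMRs. It had 138 listed regions in CD11b+ cells, with a median of 91.5% in WT and 84.4% in Dnmt3aR878H/+ mice, and 166 in CD4+ cells, with medians of 92.9% and 84.7%. CD11b+ cells had 4 hypomethylated DMRs and CD4+ cells 8. All 4 of CD11b+ cells lay in introns 2 and 4 and within 130 kb of the gene start, the first of them 23.1 kb from it. In CD4+ cells, 4 lay in intron 4 and the other 4 in the last part of the gene, 2 of them in intron 44 and 1 each across exons 48 and 55, up to 297 kb from the start. Beyond 230 kb, CD11b+ cells had 24 listed regions with more than 10 CpGs and 0 DMRs. CD4+ cells had 26 such regions and 4 DMRs. At the 2 DMRs in intron 44, the overlapping regions of CD11b+ cells lost 16.3 and 39.0 percentage points but were no DMRs. No listed region of CD11b+ cells overlapped the DMR across exon 55.

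The DMR of Itpr1 with the largest loss in CD11b+ cells was in intron 4 (108306214 to 108306899, 14 CpGs), where methylation was 59.6% in WT and 15.6% in Dnmt3aR878H/+ mice (q-value of 3.5e-07 in the authors' deposited table). The overlapping region of CD4+ cells went from 71.6% to 30.02%, a loss of 41.6 percentage points, and had a q-value of 0.15 in the authors' table. The losses in both cell types were thus of like size, and the q-value alone kept it from being a DMR in CD4+ cells. Further along intron 4, at 108325957 to 108326892, CD4+ cells went from 86.4% to 42.6% (21 CpGs, q-value of 2.5e-12 in the authors' table), and the overlapping DMR of CD11b+ cells from 70.9% to 32.1% (23 CpGs, 8.9e-06). A second shared place in intron 4 began at 108278133 in CD11b+ cells (86.4% to 64.8%) and at 108278366 in CD4+ cells (86.9% to 58.1%). The DMR across exon 48 differed between the cell types (108482546 to 108483157, 23 CpGs). There CD4+ cells went from 90.7% to 62.3%, and the overlapping region of CD11b+ cells from 90.6% to 86.7%, a loss of 3.90 percentage points. WT methylation was thus nearly equal in both cell types, and the Dnmt3aR878H/+ means lay apart. Whether the losses differ beyond the spread between mice could not be tested. The other DMRs of CD4+ cells were in intron 4 (72.8% to 48.0% and 90.1% to 67.6%), in intron 44 (83.0% to 55.7% and 81.3% to 48.0%) and across exon 55 (85.9% to 63.4%). CD11b+ cells had 1 more in intron 2 (91.3% to 65.4%).

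The start of Itpr1 had the largest gain at any of the 10 genes. A region of 12 CpGs at exon 1 (108213211 to 108213343) had a mean of 0.375% in WT and 24.2% in Dnmt3aR878H/+ CD11b+ cells, with a q-value of 1.0 in the authors' deposited table, so it was no DMR. The next listed region (108213571 to 108214013) had 0.188% and 1.04%. No listed region of CD4+ cells overlapped this place, and the nearest one before the start (108212286 to 108212446) had 0.583% in WT and 0.979% in Dnmt3aR878H/+ CD4+ cells. A mean of this size over 4 mice can come from 1 mouse or from all, which these tables cannot show.

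**Figure D2:**
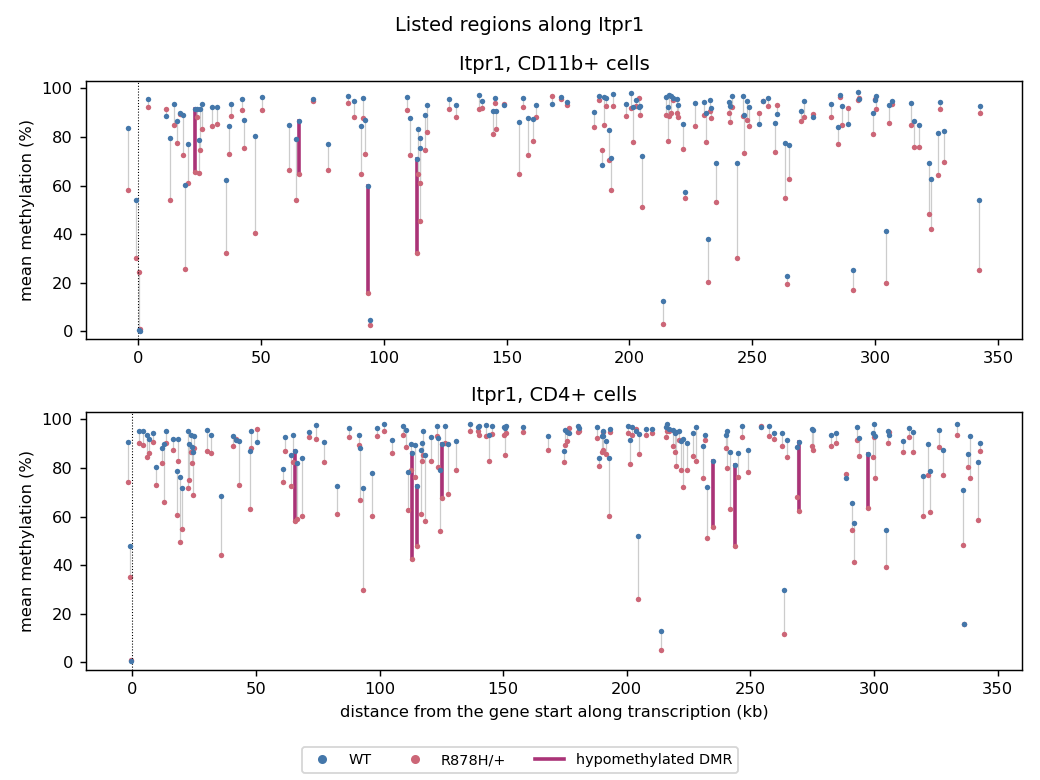
Mean methylation (%, vertical axis) of each listed region along Itpr1 by distance from the gene start (kb, horizontal axis; the dotted line is the start), in WT (blue) and Dnmt3aR878H/+ mice (red), in CD11b+ cells (top) and CD4+ cells (bottom). Grey lines join the means of a region and purple lines mark the 4 hypomethylated DMRs of CD11b+ cells and the 8 of CD4+ cells, 4 of which lie beyond 230 kb.

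Itpr2, the IP3 receptor of 394 kb on the same chromosome (146108299 to 146502223, minus strand), was the longest of the genes and had few DMRs. Its median loss was 6.24 percentage points over 136 regions of CD11b+ cells and 5.73 over 162 regions of CD4+ cells. The DMRs of both cell types met near the end of the gene. In CD11b+ cells, 212 bases of intron 51 (146170552 to 146170763, 23 CpGs) went from 42.4% to 15.7%, with a q-value of 5.8e-07 in the authors' deposited table. The DMR of CD4+ cells that spans it and exon 51 (146170394 to 146171273, 44 CpGs) went from 71.0% to 45.4%, with a q-value of 0.049 in the authors' table. The means of the cell types cover different sets of CpGs here, so their levels cannot be compared directly. Other regions of CD11b+ cells that overlap the DMR of CD4+ cells had WT means of 4.2% (146170902 to 146171087) and 71.7% (146171107 to 146171369). A second DMR of CD4+ cells in intron 50 (146172211 to 146172445, 12 CpGs) went from 87.7% to 61.0%, and the overlapping region of CD11b+ cells from 49.96% to 17.2% (q-value of 0.24 in the authors' table). Itpr2 also gained methylation at single regions, by up to 15.1 percentage points in intron 9 of CD11b+ cells (70.3% to 85.3%) and 11.0 in intron 37 of CD4+ cells (43.2% to 54.2%), none of them a DMR.

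Itpr3, the third IP3 receptor (chromosome 17, 27057304 to 27122223, plus strand), had 1 DMR, near its end. Across exon 57 (27120266 to 27120981, 19 CpGs), methylation was 82.9% in WT and 38.9% in Dnmt3aR878H/+ CD11b+ cells, a loss of 44.0 percentage points with a q-value of 2.0e-05 in the authors' deposited table. CD4+ cells went from 81.5% to 44.9% in the overlapping 371 bases (15 CpGs), and the q-value of 0.099 in the authors' table left this region outside the criteria. The levels of both genotypes were thus alike in both cell types. Over all its regions, the DMR included, the median loss was 7.03 percentage points for CD11b+ cells (35 regions) and 6.67 for CD4+ cells (46 regions), and 4 and 7 regions lost more than 20 percentage points.

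Among the phospholipases C, the DMRs were unevenly spread. Plcg2 (chromosome 8, 117498291 to 117635142, plus strand), the isoform downstream of the B cell receptor and Fc receptors, had 2 DMRs in CD4+ cells and 0 in CD11b+ cells, both in intron 2. The first (117538565 to 117539053, 21 CpGs) went from 84.0% to 42.8% in CD4+ cells, with a q-value of 7.1e-05 in the authors' deposited table. CD11b+ cells went from 72.2% to 36.5% over 350 of the same bases, but that region held 10 CpGs and had a q-value of 1.0 in the authors' table. The loss of 35.6 percentage points in CD11b+ cells was the largest at Plcg2 in that cell type. The other DMR (117543370 to 117545417, 54 CpGs) went from 77.2% to 55.2%, and CD11b+ cells had 4 overlapping regions, the longest of which went from 44.9% to 23.8%.

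Plcb2 (chromosome 2, 118707517 to 118728438, minus strand), the isoform that G proteins activate downstream of chemoattractant receptors, had the largest median loss of the 10 genes, 14.1 percentage points over 17 regions of CD11b+ cells and 11.0 over 19 regions of CD4+ cells. Its DMR of largest loss lay past the end of the gene and belonged to a neighbour. It overlapped Ankrd63, a protein-coding gene, and had its nearest edge 4903 bases from Plcb2 in CD11b+ cells and 4872 in CD4+ cells, just inside the window of 5 kb. There CD11b+ cells went from 71.8% to 32.3% (118701460 to 118702614, q-value of 3.1e-04 in the authors' deposited table) and CD4+ cells from 78.9% to 32.8% (118701728 to 118702645, 35 CpGs, q-value of 1.1e-17). Just outside the window, CD4+ cells had a further DMR (118700804 to 118701634) that went from 38.1% to 13.9%. Inside Plcb2, CD4+ cells had a DMR across exons 26 and 27 (118711028 to 118711451, 31 CpGs), with 45.0% in WT and 13.1% in Dnmt3aR878H/+ mice. The overlapping region of CD11b+ cells went from 38.8% to 11.4% and missed the criteria with a q-value of 0.088 in the authors' table. Exon 20 of Plcb2 was higher in Dnmt3aR878H/+ CD11b+ cells, at 76.0% against 59.7% in WT, in a region of 10 CpGs that was no DMR.

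Plcg1 (chromosome 2, 160731300 to 160775760, plus strand), the isoform downstream of the T cell receptor, had no DMR in 16 regions of CD11b+ cells and 22 of CD4+ cells. Its largest loss in CD11b+ cells was in intron 1, from 36.6% to 11.8%. In CD4+ cells it was past the gene end, from 76.8% to 48.3%. Both had q-values of 1.0 in the authors' deposited table. The region past the gene end lay 4820 bases from Plcg1 and overlapped Zhx3, another protein-coding gene. The intron 1 region overlapped a region of CD4+ cells that was low in both genotypes, at 11.6% and 7.00%. Regions within 1 kb of a start of Plcg1 had WT means from 1.00% to 90.3% in CD4+ cells (5 regions) and from 26.1% to 95.9% in CD11b+ cells (3 regions), and their largest loss was 11.8 percentage points.

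Nfatc2, the NFAT protein also called NFAT1 (chromosome 2, 168476410 to 168601657, minus strand), had the only DMR at a promoter. It lay 307 bases before the start (168601964 to 168602099, 13 CpGs) and went from 58.8% in WT to 11.6% in Dnmt3aR878H/+ CD4+ cells, a loss of 47.2 percentage points and the largest at any of the 10 genes (q-value of 9.4e-05 in the authors' deposited table). CD11b+ cells went from 46.1% to 6.88% in a region that shares 60 of these bases, with a q-value of 0.042 in the authors' table. That region had exactly 10 CpGs, so the minimum number of CpGs alone kept it from being a DMR. On either side of the promoter DMR, methylation took other values. CD4+ cells had 5.08% in WT and 4.38% in Dnmt3aR878H/+ mice between 168601147 and 168601281, and 90.4% and 70.7% between 168602410 and 168602849. Inside the gene, CD4+ cells had a DMR of 1700 bases in intron 1 (168578936 to 168580635, 41 CpGs), which went from 71.0% to 33.1%. CD11b+ cells had 4 overlapping regions there. The one with the longest overlap went from 64.5% to 28.7%, with a q-value of 1.0 in the authors' table.

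Intron 3 of Nfatc2 held 2 neighbouring DMRs in CD11b+ cells. One (168552634 to 168553748, 27 CpGs) went from 47.3% to 23.9% and the other (168553767 to 168554116, 17 CpGs) from 46.5% to 7.94%, with a q-value of 1.5e-09 in the authors' deposited table. CD4+ cells had a DMR over part of the first (168553358 to 168553749, 24 CpGs), which went from 51.6% to 21.01%. Over the rest of it, WT CD4+ cells had 80.9% and Dnmt3aR878H/+ CD4+ cells 66.3%. At the other DMR, the overlapping region of CD4+ cells went from 68.7% to 48.9%. The regions were delimited separately in each cell type, and the last 2 share 155 bases. The width of the low-methylated stretch can thus not be compared between the cell types from these means. Nfatc2 also had a region in intron 9 that was higher in Dnmt3aR878H/+ CD11b+ cells, at 63.1% against 41.2%, with a q-value of 1.0 in the authors' table. The overlapping region of CD4+ cells went the other way, from 48.1% to 35.7%.

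**Figure D3:**
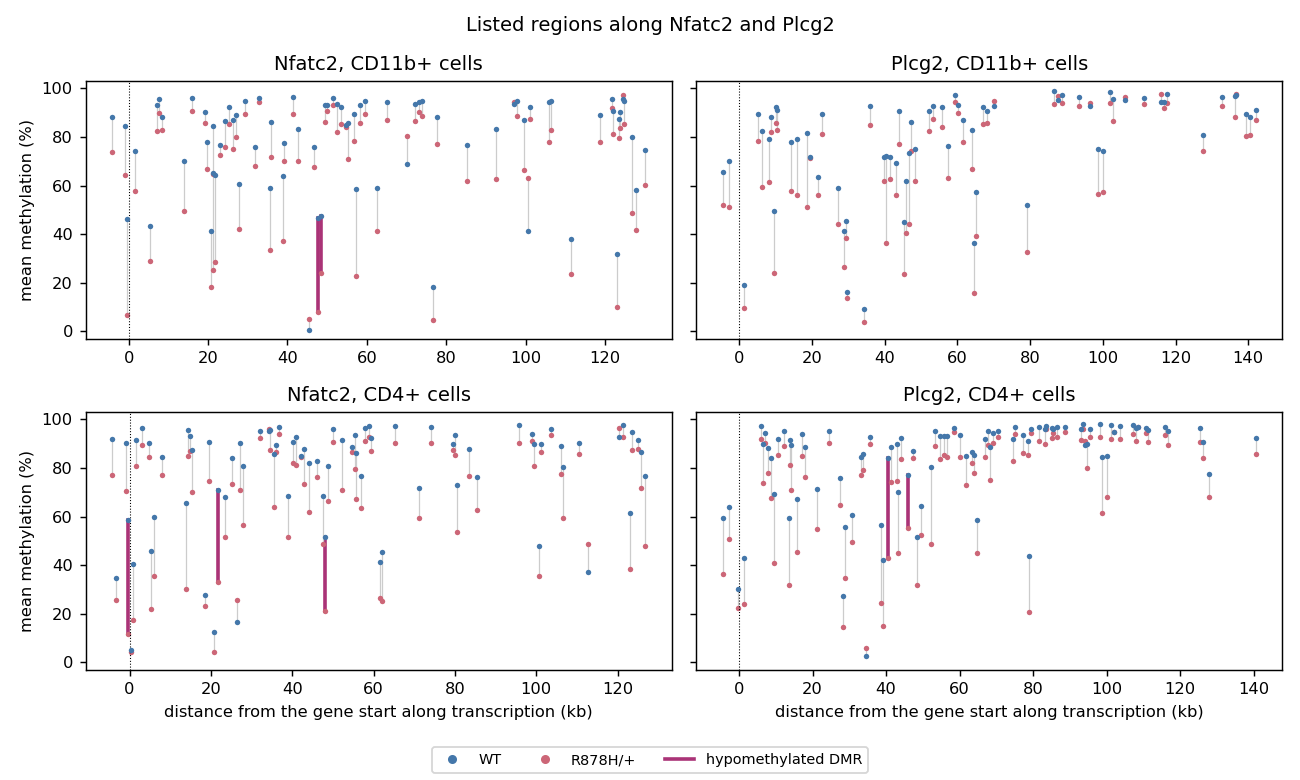
Mean methylation (%, vertical axis) of each listed region along Nfatc2 (left) and Plcg2 (right) by distance from the gene start along transcription (kb), in WT (blue) and Dnmt3aR878H/+ mice (red), for CD11b+ cells (top) and CD4+ cells (bottom). Purple lines mark hypomethylated DMRs, 2 and 3 at Nfatc2 and 0 and 2 at Plcg2; the DMR of CD4+ cells at the dotted line is the one at the Nfatc2 promoter.

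Ppp3ca, the catalytic subunit alpha of calcineurin (chromosome 3, 136670124 to 136937727, plus strand), had 1 DMR in CD11b+ and 2 in CD4+ cells, at different places. In intron 2 (136836052 to 136837249, 31 CpGs), CD11b+ cells went from 66.9% to 36.3%, with a q-value of 1.7e-06 in the authors' deposited table. CD4+ cells went from 90.2% to 59.9% there, and the q-value of 0.063 in the authors' table was above the threshold. The loss was 30.6 percentage points for CD11b+ cells and 30.3 for CD4+ cells, from different WT levels. The DMRs of CD4+ cells were in intron 1 (136684178 to 136684946, 27 CpGs), which went from 79.1% to 45.4%, and in intron 2 (136834100 to 136834773, 15 CpGs), which went from 84.7% to 52.5%. CD11b+ cells went from 50.6% to 20.6% at the former and from 75.1% to 49.4% at the latter. At all 3 places WT CD4+ cells were the more methylated of the cell types, and both cell types lost between 25.7 and 33.6 percentage points.

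Prkcb, protein kinase C beta, which diacylglycerol and calcium activate together (chromosome 7, 122288751 to 122634402, plus strand), had no DMR in 106 regions of CD11b+ cells and 141 of CD4+ cells, although it is 346 kb long. Its largest loss was in intron 2 in both cell types, from 61.9% to 33.1% in CD11b+ cells and, at another place, from 71.0% to 39.3% in CD4+ cells, with q-values of 1.0 and 0.67 in the authors' deposited table. Its median loss was 7.51 percentage points for CD11b+ cells and 7.12 for CD4+ cells, close to that of Itpr1 with 7.71 and 7.21, which had 12 DMRs in all. The genes were of like length and like median loss, but their larger losses differed. The upper quartile of loss was 14.2 and 15.5 percentage points at Itpr1 and 11.1 and 10.9 at Prkcb, in CD11b+ and CD4+ cells. More than 20 percentage points were lost in 20 of 138 and 28 of 166 regions of Itpr1. At Prkcb, 7 of 106 and 10 of 141 did.

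Camk4, a calmodulin-dependent kinase that phosphorylates CREB (chromosome 18, 32934931 to 33191228, plus strand), had no DMR in 48 regions of CD11b+ cells and 60 of CD4+ cells. It had the smallest median loss of the 10 genes in both cell types, 5.80 percentage points for CD11b+ cells and 5.59 for CD4+ cells. Its largest loss was at the same place of intron 1 in both cell types (33036655 to 33037284 in CD11b+ cells), from 60.3% to 37.2% and from 67.0% to 43.8%, with q-values of 1.0 in the authors' deposited table.

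In position, the DMRs lay away from gene starts with 1 exception. Of 10 DMRs of CD11b+ cells, 8 lay in introns, 1 across an exon and 1 past a gene end, and of 19 of CD4+ cells, 13, 4 and 1, with 1 at a promoter. Apart from the Nfatc2 promoter, the DMR nearest to a transcription start was 9556 bases from it in CD4+ cells, and in CD11b+ cells the nearest was 22464 bases away. At the promoters of the genes (within 1 kb of any transcription start), 23 regions were listed for CD11b+ cells and 25 for CD4+ cells. Their WT median was 67.9% and 58.8%, below that of introns with 90.0% and 91.6% and of exons with 93.2% and 95.6%, and their median loss was 9.71 and 9.72 percentage points.

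**Figure D4:**
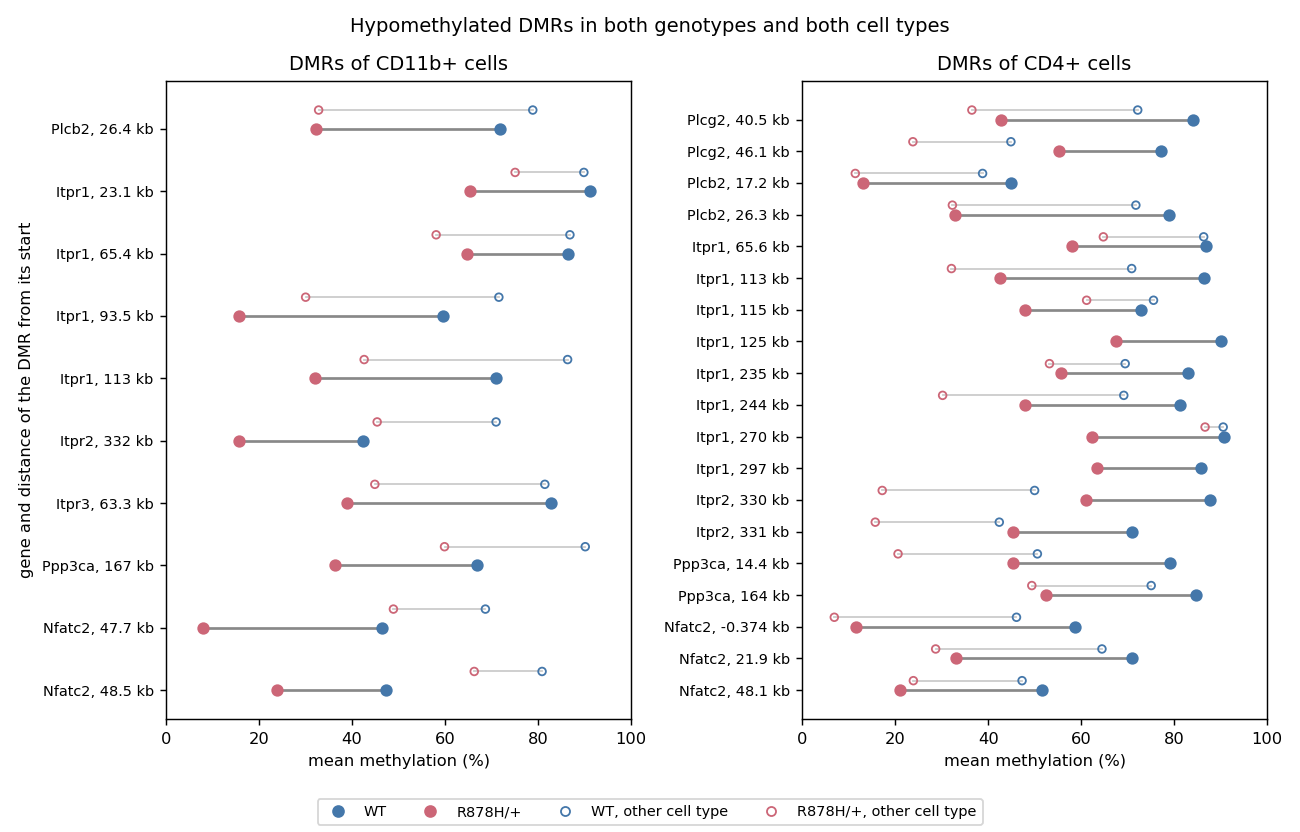
Mean methylation (%, horizontal axis) of each hypomethylated DMR of the 10 genes in WT (blue, filled) and Dnmt3aR878H/+ mice (red, filled), for CD11b+ cells (left, 10 DMRs) and CD4+ cells (right, 19 DMRs). Open circles above each give the region of the other cell type with the longest overlap, which was lower in Dnmt3aR878H/+ mice in all 27 cases where there was one.

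Most DMRs of one cell type overlapped a region of the other in which the Dnmt3aR878H/+ mean was also lower. The differences of both cell types chose the genes, so the counts and losses here are a description. All 10 DMRs of CD11b+ cells overlapped a listed region of CD4+ cells, and 17 of 19 DMRs of CD4+ cells overlapped one of CD11b+ cells. In the region with the longest overlap, the Dnmt3aR878H/+ mean was the lower one in 10 of 10 and in 17 of 17. It was also lower in 95.5% of all listed regions of CD4+ cells and 93.4% of those of CD11b+ cells. The direction alone is thus near that of any listed region. The losses there were 14.6 to 46.1 percentage points in CD4+ cells (median 29.6) and 3.90 to 39.5 in CD11b+ cells (median 27.4). They exceeded 20 percentage points in 7 of 10 and in 14 of 17. Of all listed regions, 34462 of 553467 in CD4+ cells and 28832 of 411770 in CD11b+ cells lost that much. The same count was not made for the DMRs of other genes. Counted by the criteria alone, sharing was lower. Of the DMRs of CD11b+ cells, 5 of 10 overlapped a DMR of CD4+ cells, and of the DMRs of CD4+ cells, 5 of 19 (26.3%) overlapped one of CD11b+ cells, beside 54.4% and 35.3% over all hypomethylated DMRs. These 5 were the place at Ankrd63 next to Plcb2, 2 places in intron 4 of Itpr1, the end of Itpr2 and intron 3 of Nfatc2.

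WT levels also differed between the cell types. The WT mean is part of the genotype difference that chose the genes, so this comparison is a description too. The tables were made separately, so levels are set side by side here only where regions overlap, and regions that share few bases can hold different CpGs. Over 565 overlapping pairs of regions at the genes, WT methylation was higher in CD4+ cells in 382 pairs (67.6%) with a median difference of 2.20 percentage points (interquartile range over pairs -1.37 to 8.52), beside 60.0% and 1.14 over all listed regions. At 24 pairs WT CD4+ cells were more than 30 percentage points higher and at 5 pairs WT CD11b+ cells were, together 5.13% of pairs at the genes and 4.24% of all pairs. The correlation of WT levels across the 565 pairs was 0.717, against 0.811 over all 279942 pairs, and that of the losses was 0.596, against 0.639. Pairs are not independent, since neighbouring pairs share a region. Plcb2 had the largest median difference, with WT CD4+ cells 6.19 percentage points higher over 15 pairs. At Ppp3ca, WT CD4+ cells were 5.78 percentage points higher and were higher in 57 of 72 pairs, and its median loss over these pairs was 13.3 percentage points for CD11b+ cells and 8.76 for CD4+ cells. The smallest median difference was that of Plcg1, 0.573 percentage points over 11 pairs.

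A WT difference above 30 percentage points occurred at 9 of 97 pairs of Itpr2, 7 of 72 of Ppp3ca, 5 of 60 of Nfatc2 and 4 of 121 of Itpr1, at 1 pair each of Plcg2, Plcb2, Itpr3 and Prkcb, and at 0 of 11 pairs of Plcg1 and 0 of 25 of Camk4. Only 5 of the 29 pairs shared at least 50% of both regions, and 15 shared fewer than 100 bases. The largest difference at Itpr2 rested on a single shared base between neighbouring regions of intron 45 (19.2% in CD11b+ and 92.1% in CD4+ cells). The next one lay inside the wider DMR of CD4+ cells near the end of Itpr2 but outside the overlapping DMR of CD11b+ cells. There 186 bases had 4.20% in WT CD11b+ cells and the region of CD4+ cells around them 71.0%. At Ppp3ca, intron 1 had 48.9% in WT CD11b+ and 94.15% in WT CD4+ cells over 177 shared bases. At Nfatc2 the largest difference went the other way, with 87.05% in WT CD11b+ and 16.5% in WT CD4+ cells in intron 1, over 35 shared bases. At Itpr1, intron 46 had 77.55% in WT CD11b+ and 29.8% in WT CD4+ cells over 242 shared bases. The Prkcb promoter had 5.17% in WT CD11b+ cells where the overlapping region of CD4+ cells had 55.4%, but the regions shared 74 bases, and the region of CD11b+ cells just before it had 77.8%. The remaining ones were 36.9 percentage points past the end of Itpr3 (23 shared bases), 34.6 across exons 25 and 26 of Plcb2 (370 bases) and 32.35 in intron 2 of Plcg2 (712 bases), each higher in WT CD4+ cells.

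**Figure D5:**
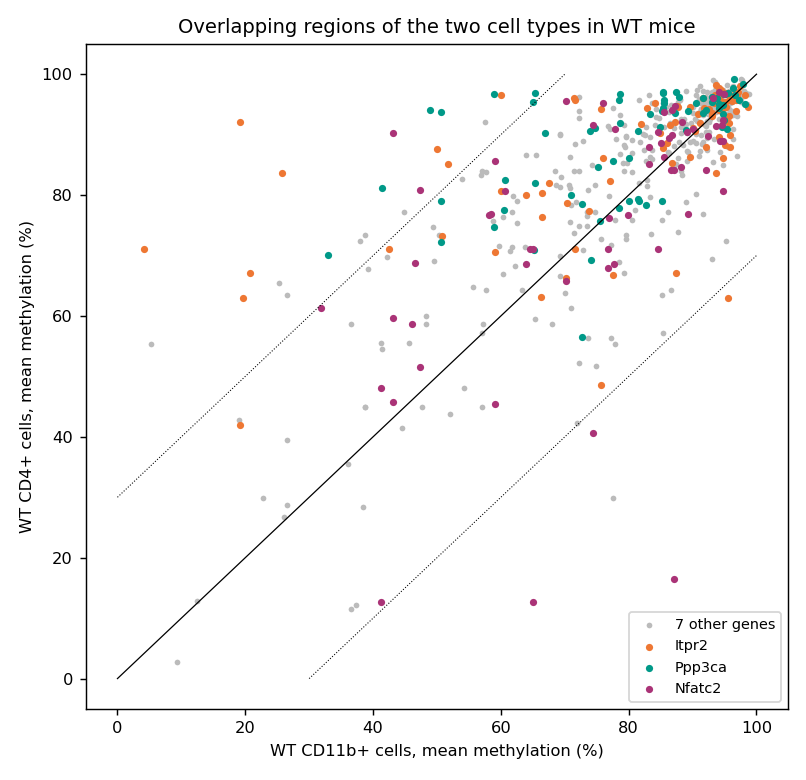
Mean methylation of overlapping regions in WT CD11b+ cells (%, horizontal axis) and WT CD4+ cells (%, vertical axis) for 565 pairs at the 10 genes, with Itpr2, Ppp3ca and Nfatc2 in colour. The solid line marks equal levels and the dotted lines a difference of 30 percentage points, beyond which 24 pairs lie above and 5 below.

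The labels of the cells were checked at marker genes in the same way. At 8 T cell genes (Cd3e, Cd3d, Cd3g, Cd4, Cd28, Lck, Bcl11b and Tcf7), WT CD4+ cells were the less methylated in 47 of 73 pairs, with a median difference of -6.20 percentage points. Bcl11b gave 29 of these 47 pairs and 37 of the 73, and the other 7 genes were lower in 18 of 36. At 8 myeloid genes (Itgam, Csf1r, Spi1, Cebpa, Lyz2, S100a8, S100a9 and Fcgr3), they were the more methylated in 55 of 85 pairs (64.7%), with a median difference of 4.32, beside 60.0% of all pairs. Spi1 gave 25 of these pairs, and without it they were the more methylated in 35 of 60. The check of the labels thus rests mainly on Bcl11b and Spi1. By their medians, Cd3g, Cd4 and Cd28 were higher in WT CD4+ cells by 4.90, 1.88 and 0.388 percentage points, and Tcf7 and Itgam lower by values near 0 (-0.175 and -0.229). A mean over cells cannot tell a loss in part of the cells from a smaller loss in all of them, nor from a changed mix of cells within the CD11b+ or CD4+ fraction. In each cell type the sample numbers in the titles are higher for every Dnmt3aR878H/+ entry than for any WT entry, so the order of the samples and the genotype cannot be told apart.

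The other genes of the pathway were described by a list of 80 genes in 9 roles, from the activators of phospholipase C to the transcription factors. Among the 78 with a listed region of more than 10 CpGs in CD11b+ cells, 14 (17.9%) held a hypomethylated DMR, and among 79 in CD4+ cells 24 did (30.4%). Of all protein-coding genes, 8.90% and 11.8% did, and the genes of the list held more regions, with a median of 16 in CD11b+ and 22 in CD4+ cells against 9 and 11. Hypermethylated DMRs numbered 0 in both. In both cell types 13 genes had one, in CD11b+ cells alone P2rx4 did, and in CD4+ cells alone 11 genes did. The same counts were not made over all protein-coding genes. The counts by role that follow have no share of genes of like size beside them. Nothing is read from either. CaM kinases and calmodulins had the most DMRs, with 3 of 11 genes and 9 DMRs in CD11b+ cells and 5 of 11 and 14 in CD4+ cells. The diacylglycerol arm had 3 of 11 genes in each cell type, the same ones, with 6 and 12 DMRs. Phospholipase C isoforms other than the members had 1 of 11 in CD11b+ and 4 of 11 in CD4+ cells, and store-operated calcium entry and pumps 1 of 9 in each. The other channels of the list had 1 of 6 in CD11b+ and 2 of 6 in CD4+ cells.

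The 13 genes that held one in both came from every role of the list except the channels outside the store-operated group. Camk2a, the alpha subunit of CaM kinase II, had the most DMRs of the list when both cell types are added, 5 in 42 regions of CD11b+ cells and 6 in 50 of CD4+ cells, and its largest loss was from 73.3% to 16.4% in CD11b+ cells (q-value of 4.5e-21 in the authors' deposited table) and from 82.8% to 30.7% in CD4+ cells. Camkk2, the kinase that activates CaM kinases, had 2 in each, and its largest loss began at the same base in both cell types (73.5% to 23.0%, and 82.7% to 48.6%). Camk2d had 2 and 3, with largest losses of 39.5 and 42.7 percentage points. Among protein kinases C, Prkca had 3 and 7 DMRs, Prkce 1 and 3, and Prkch 2 and 2. The largest losses of Prkce (64.3% to 17.0% in CD11b+ cells and 59.9% to 14.6% in CD4+ cells) and of Prkch (86.1% to 39.6% and 86.7% to 50.4%) were each at a single place in both cell types. Nfatc1, the close relative of Nfatc2, had 3 and 5 DMRs with largest losses of 35.8 and 37.1 percentage points. Rcan1, an inhibitor of calcineurin, had 2 and 3, the largest from 89.9% to 54.1% in CD11b+ cells and from 54.2% to 10.7% in CD4+ cells.

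Upstream in the relay, Btk, a kinase that activates Plcg2 in B cells and myeloid cells, had 2 and 1 DMRs. Its largest loss was from 50.2% to 22.7% in CD11b+ cells and, at another place, from 38.5% to 17.5% in CD4+ cells. Btk lies on chromosome X. The study pooled sex-matched males and females, and the sexes in each group are not given here. Whether sex contributes to these values was not tested. Plcl2, a phospholipase C-like protein without catalytic activity, had 2 and 1, with largest losses of 36.7 and 36.6 percentage points at overlapping places. Itpkb, which phosphorylates IP3, had 1 in each, with losses of 25.5 and 20.1 percentage points. Stim1, the calcium sensor of the endoplasmic reticulum, had 1 in each at the same start, from 63.1% to 21.8% in CD11b+ cells and from 79.7% to 41.6% in CD4+ cells. Mef2c, a transcription factor that calcineurin and CaM kinases regulate, had 1 in each, with losses of 35.8 and 39.3 percentage points.

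Close to the limits of the criteria, the values were continuous. In CD11b+ cells, the DMR with the smallest loss was the one of Itpr1 that began at 108278133, with 21.6 percentage points and also the highest q-value, 0.021 in the authors' deposited table, and the region with the next q-value outside was the one at exons 26 and 27 of Plcb2 with 0.088. In CD4+ cells, the smallest loss of a DMR was 22.0 percentage points at Plcg2. A region past the end of Itpr1 (108551608 to 108552141, 25 CpGs) lay just outside with 17.3 percentage points, from 93.2% to 76.0%. By q-value, the exon 51 DMR of Itpr2 was just inside with 0.049 in the authors' table, and a region of Itpr2 at 146484741 to 146485346 (88.0% to 62.2%, 16 CpGs) just outside with 0.052.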

How the data were processed

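The data are whole-genome bisulfite sequencing of CD11b+ and of CD4+ spleen cells, each from 4 mice per genotype. The authors aligned the reads to mm10 with BISCUIT and passed CpG methylation ratios to metilene; the criteria for DMRs are those of the study's methods, versions and further metilene settings are not given in the sources used here, and the submitters' processing notes name FastQC. The 2 deposited tables hold, per region, the authors' means of both groups in percent, their difference in percentage points, the count of CpG cytosines, 2 p-values and a q-value. They have no header, so columns were identified from their values, and they have 0 columns of per-sample values.

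Regions were assigned to a gene where they overlapped its body or 5 kb to either side (GENCODE M21), with coordinates counted from 1. Exon and intron numbers are those of 1 transcript per gene, and promoters reach 1 kb to each side of a start. Regions of the 2 cell types were paired by an overlap of at least 1 base. The authors' comparison values other than means and q-values were used only as an alternative. The genes, the pathway and marker lists and the alternatives were chosen with earlier results of these data known. By rule, the text names all 10 genes with their DMRs and largest changes, the largest WT difference per gene, and pathway genes with a hypomethylated DMR in both cell types. Sequence was read from the GRCm38.p6 assembly; the DMR at Ankrd63 was replaced by the next one at Plcb2. Procedures were tested on simulated data. The result of 1 further marker list is not reported here. Alternatives were other thresholds, windows and overlaps. Versions were python 3.11.15, numpy 2.4.6, pandas 2.3.3, pysam 0.24.0 and matplotlib 3.10.9.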

Additional observations from a re-analysis of the deposited data

How the results depend on the processing

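The numbers of DMRs rested on the q-value threshold. Without it, and likewise with Benjamini-Hochberg adjustment of the deposited Mann-Whitney p-values in its place, the 10 genes had 47 hypomethylated DMRs for CD11b+ and 62 for CD4+ cells, 2 hypermethylated DMRs in CD11b+ cells, a hypomethylated DMR at 10 genes in CD4+ cells, and 47 and 53 other pathway genes had one in CD11b+ and CD4+ cells. Without the q-value, 27 DMRs were shared by both cell types, and with a reciprocal overlap of 50%, 3 were. A difference above 30 percentage points left 6 hypomethylated DMRs for CD11b+ and 10 for CD4+ cells, and more than 20 CpGs left 6 in CD11b+ cells. In regions with more than 10 CpGs, 94.9% and 96.7% were lower in Dnmt3aR878H/+ CD11b+ and CD4+ cells. The other 78 values stayed within the set margin, among them 9 and 16 hypomethylated DMRs with more than 10 CG dinucleotides in place of CpG cytosines, which was tried only after seeing the data. No median or share changed direction under any of these alternatives. No paired analysis was possible because single mice are not given in the tables, and for the same reason no mouse could be left out and no coverage minimum set.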
